A study of Saccharomyces cerevisiae with 48 samples.

Results

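Between about 150 and 210 min after a shift to 37 °C, budding yeast cells of the cdc28-4 strain and of the wild type changed many transcripts differently, with G1 cyclin genes and targets of the factor SBF up in cdc28-4 and ribosome biogenesis genes down in it. The values compared are changes over time within a course. For cdc28-4, the change was the mean log2 intensity at 190, 210 and 230 min (late) minus that at 130 and 150 min (early), taken in each of 2 time courses. For wild type it was the mean at 195, 210 and 225 min minus that at 150 and 165 min, in 1 time course. The windows are thus not the same in both strains, and those of cdc28-4 lie further apart in time. The difference runs as wild type minus cdc28-4, so a positive value means that the transcript rose more, or fell less, in wild type, and a negative value means that it rose more, or fell less, in cdc28-4. The rule is one of times and uses no measured value, and it takes in 15 of the 48 arrays, 10 of cdc28-4 and 5 of wild type.

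The cdc28-4 cells are labelled BF264-15DU, mat a, with the cdc28-4 allele, a temperature-sensitive form of CDC28, and as having no Cdk activity. The wild-type cells are labelled BF264-15DU, mat a, with the bar1 allele, and as having Cdk activity; the label of the mutant does not list bar1. In both strains small daughter cells, collected by centrifugal elutriation from cultures grown at 25 °C in rich medium (YEPD), were put into the same medium at 37 °C at 0 min. The cells thus carry a heat shift and a synchronization as well as the mutation, and each strain is represented by 1 genotype in 1 strain background. Total RNA was hybridised to Affymetrix Yeast Genome 2.0 arrays, 1 array per sample.

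CDC28 encodes Cdk1, the cyclin-dependent kinase that drives the budding yeast cell cycle. With G1 cyclins it starts the cycle by releasing the transcription factors SBF (Swi4 with Swi6) and MBF (Mbp1 with Swi6), which switch on genes for budding, the cell wall and DNA replication. With B-type cyclins it later shuts SBF off and helps to drive the mitotic genes that Mcm1, Fkh2 and Ndd1 control. A strain that lacks Cdk1 activity does not bud, replicate or divide, but many periodic transcripts are known to keep moving in such cells.

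On the 15 arrays the median intensity lay between 415 and 445, and 92% to 95.8% of the 5449 measured genes were above background, the 95th percentile of the probe sets for fission yeast on the same array. The number of arrays limits the precision. If the sample numbers in the labelling protocol follow the listing, all cdc28-4 RNA was labelled with one kit and all wild-type RNA with another, so kit and strain cannot be told apart for levels. An offset that stays constant over a course leaves its change as it is. RNA quality was followed by the log2 signal at the 3′ end over that at the 5′ end of control transcripts, which was 0.534 late against 0.522 early in cdc28-4 course 1, 0.345 against 0.312 in course 2, and 0.941 against 0.848 in wild type. Its change was thus largest in wild type, at 0.093, and its part in the differences was not tested. The arrays also carry 1746 probe sets for fission yeast, for which budding yeast RNA holds no target; 184 of them (10.5%) passed the same test in a joint fit, where 1971 budding yeast genes (36.2%) did. A probe set named for 1 gene can also bind a near-identical copy, which bears on the histone, HSP82, MAL32 and ribosomal protein values. At 170 min, a time that lies in neither window, the array of cdc28-4 course 2 stood apart: its distance from the mean of its neighbours in time had an SD over genes of 0.318, against 0.0438 in course 1.

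Marker genes were set against the labels first. BAR1 (YIL015W), the protease that destroys alpha-factor, stood between 11.53 and 12.16 on the log2 scale in cdc28-4 and between 7.44 and 7.60 in wild type, where it was under background, as the bar1 label has it. The a-factor gene MFA1 and the alpha-factor receptor gene STE2 were above background on every array of both strains. The main alpha-factor gene MF(ALPHA)1 (YPL187W), which is normally silent in cells of mating type a, stood between 10.02 and 11.07 in cdc28-4. In wild type it stood between 7.28 and 7.50, under background. The other alpha-specific genes were also above background in cdc28-4 by their window means, although this strain is labelled mat a. There SAG1 stood at 11.12 late and 10.67 early, STE3 at 9.3 and 9.025, and MF(ALPHA)2 at 9.311 and 9.209. In wild type these genes were not all silent: SAG1 was above background, with window means of 9.70 late and 9.78 early. STE3 was near background in wild type, at 8.70 and 8.65, and MF(ALPHA)2 was under it, at 7.86 and 7.76. CDC28 (YBR160W) itself is no test of the allele, which leaves the transcript in place.

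In limma, 2531 of 5449 genes (46.4%) changed differently in the strains, 1367 with a positive difference (25.1%) and 1164 with a negative one (21.4%). Here and below, differed, rose and fell are used of a gene whose Benjamini-Hochberg adjusted p was under 0.05. Without the cdc28-4 course 1 array at 150 min 1129 genes differed, and in a fit of all 48 arrays with no term for the course (the 48-array fit) 958 did. With a cdc28-4 early window of 150 and 170 min 0 genes differed (966 at an unadjusted p under 0.05), and with cdc28-4 interpolated to the wild-type times 92 did; both take in the 170 min array of course 2, and without it 2140 and 2255 genes differed. The balance of directions turned with the scaling: it was 1030 positive and 1524 negative (40.3% positive) after median centring of the arrays, and 1298 and 818 (61.3% positive) after centring on the probe sets for fission yeast. The median difference over all genes was 0.017, and single genes ran from -1.80 to 0.71. Past 0.5 on the log2 scale lay 174 called genes on the negative and 76 on the positive side, and past 1 there were 17 and 0. The spread comes from the 2 cdc28-4 courses and is assumed for the 1 wild-type course, and nothing states that the courses came from separate starting cultures, so p-values measure the spread between these courses.

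Within cdc28-4, 1463 genes rose (26.8%) and 1482 fell (27.2%). Within wild type, 926 rose (17%) and 733 fell (13.5%). Among the genes with a negative difference, 565 rose in cdc28-4 without a called change in wild type, 264 rose in cdc28-4 and fell in wild type, and 246 fell in wild type without a called change in cdc28-4. Among those with a positive difference, 643 fell in cdc28-4 without a called change in wild type, 293 fell in cdc28-4 and rose in wild type, and 315 rose in wild type without a called change in cdc28-4. Across genes the changes of the 2 cdc28-4 courses had r = 0.925, whereas those of wild type had r = -0.0628 with course 1 and r = -0.0831 with course 2. Genes are not independent replicates, and these values are descriptions.

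**Figure D1:**
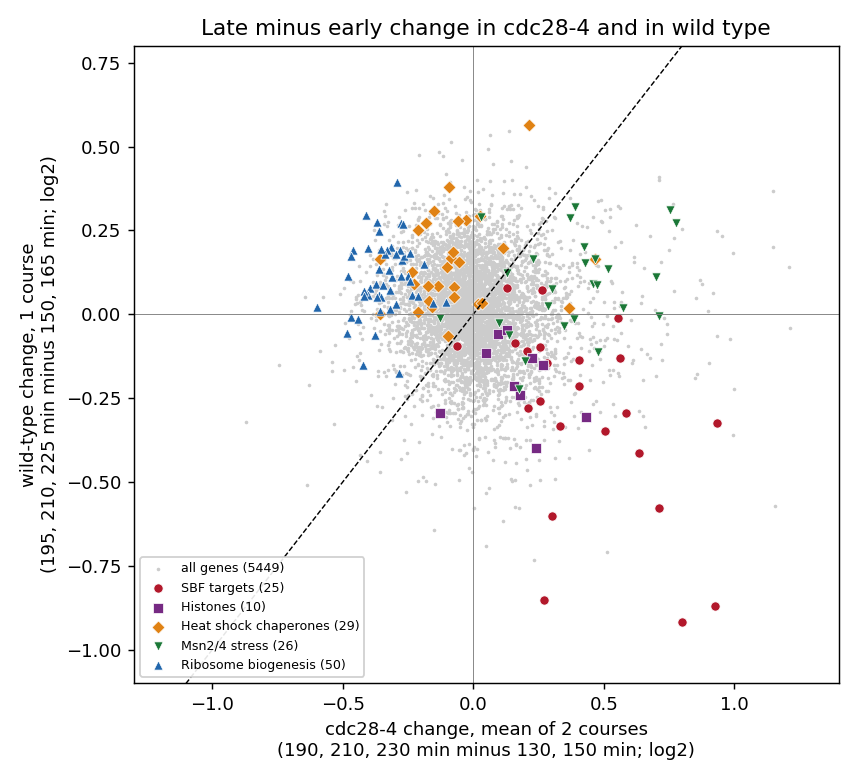
Each point is a gene, with its cdc28-4 change (mean of 2 courses, log2) on the x axis and its wild-type change (1 course, log2) on the y axis; the dashed line marks equal change, and 5 gene lists are coloured. SBF targets lie at the lower right, most of them up in cdc28-4 and down in wild type, and ribosome biogenesis genes lie at the left, all 50 of them down in cdc28-4.

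The G1 and S cyclins moved furthest apart as a list. The list holds the Cdk1 cyclins of G1 (CLN1, CLN2, CLN3) and of S phase (CLB5, CLB6) and the G1 cyclins of the kinase Pho85 (PCL1, PCL2). All 7 rose in cdc28-4, 5 fell in wild type, and 6 had a negative difference, with a median of -0.85. All 7 also had every late array above every early array in both cdc28-4 courses. Of all genes tested, 45.8% had late arrays clear of early ones in both courses, in the direction of the difference.

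CLN2 (YPL256C), the G1 cyclin that triggers budding with CLN1, stood at 11.91, 12.03 and 12.20 at 190, 210 and 230 min, against 11.39 and 11.50 at 130 and 150 min, in cdc28-4 course 1. In course 2 it stood at 11.76, 11.96 and 12.14 late against 11.17 and 11.40 early. In wild type it stood at 9.97, 10.28 and 10.33 late against 10.75 and 10.46 early. The late arrays were thus above all early ones in both mutant courses and below them in wild type, with changes of 0.60 and 0.67 against -0.41 and a difference of -1.05 (SE 0.052, adjusted p = 0.000506).

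PCL1 (YNL289W), a Pho85 cyclin made in late G1, showed the widest gap in the list. Its changes were 0.90 and 0.97 in the cdc28-4 courses against -0.32 in wild type, a difference of -1.26 (SE 0.053, adjusted p = 0.000319). The wild-type late arrays did not move together: PCL1 stood at 9.31, 9.82 and 9.97 at 195, 210 and 225 min, against 10.13 and 9.92 at 150 and 165 min, so the last late value lay between the early ones. CLN1 differed by -0.85 (SE 0.074). CLN3, the cyclin that acts first in G1, differed by -0.48 (SE 0.052), with changes of 0.23 and 0.30 against -0.22.

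The S-phase cyclin genes behaved unequally. CLB6 (YGR109C) stood at 11.04, 11.30 and 11.40 late against 10.16 and 10.56 early in cdc28-4 course 1, at 11.09, 11.26 and 11.39 against 10.30 and 10.56 in course 2, and at 10.46, 10.57 and 10.75 against 10.84 and 10.73 in wild type. Its difference was -1.04 (SE 0.053, adjusted p = 0.000529). The partner gene CLB5 rose by 0.13 and 0.09 in the cdc28-4 courses, had a wild-type change of -0.02, and its difference of -0.13 (SE 0.048) did not pass (adjusted p = 0.0735). PCL2 differed by -0.24 (SE 0.052), a call that was lost in the 48-array fit and without the cdc28-4 course 1 or the wild-type array at 150 min.

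SBF targets, which serve bud growth and the cell wall and include CLN1, CLN2, PCL1 and PCL2, mostly rose in cdc28-4 and fell in wild type. Of 25 measured, 24 rose in cdc28-4 and 16 fell in wild type; none fell in cdc28-4 or rose in wild type. The difference was negative for 23, with a median of -0.57, beside 0.017 over all genes, and it was not called for the Ras-family gene RSR1 or the wall remodelling gene GAS1. In 16 of the 25 the late arrays stood clear of the early arrays in all 3 courses, in the direction of the difference, as they did for 13.3% of all genes tested.

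TOS6 (YNL300W), a glycosylphosphatidylinositol-anchored wall protein, had the largest difference of any gene, -1.80 (SE 0.047, adjusted p = 0.000116). It stood at 12.87, 13.09 and 13.25 late against 11.94 and 12.32 early in cdc28-4 course 1, and at 12.82, 12.99 and 13.13 against 11.89 and 12.24 in course 2. In wild type it stood at 11.40, 11.43 and 12.45 late against 12.81 and 12.45 early. The wild-type level had thus come back at 225 min to that of 165 min, while the mutant courses were still rising.

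SVS1 (YPL163C), a wall and vacuole protein, changed by 0.84 and 0.76 in the cdc28-4 courses and by -0.92 in wild type, a difference of -1.72 (SE 0.055). AXL2 (YIL140W), the landmark protein of axial bud sites, stood at 12.04, 12.17 and 12.27 late against 11.28 and 11.58 early in course 1, at 11.92, 12.08 and 12.18 against 11.23 and 11.51 in course 2, and at 10.16, 10.38 and 10.58 against 11.09 and 10.80 in wild type. Its difference was -1.29 (SE 0.048). PRY2, a secreted sterol-binding protein, differed by -1.12 (SE 0.046), with most of it from the wild-type fall: 0.27 in each cdc28-4 course against -0.85. Smaller differences on this list included those of the Cdc42 effector genes GIC1 at -0.67 and GIC2 at -0.52, and of FKS1, the catalytic subunit of glucan synthase, at -0.15.

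**Figure D2:**
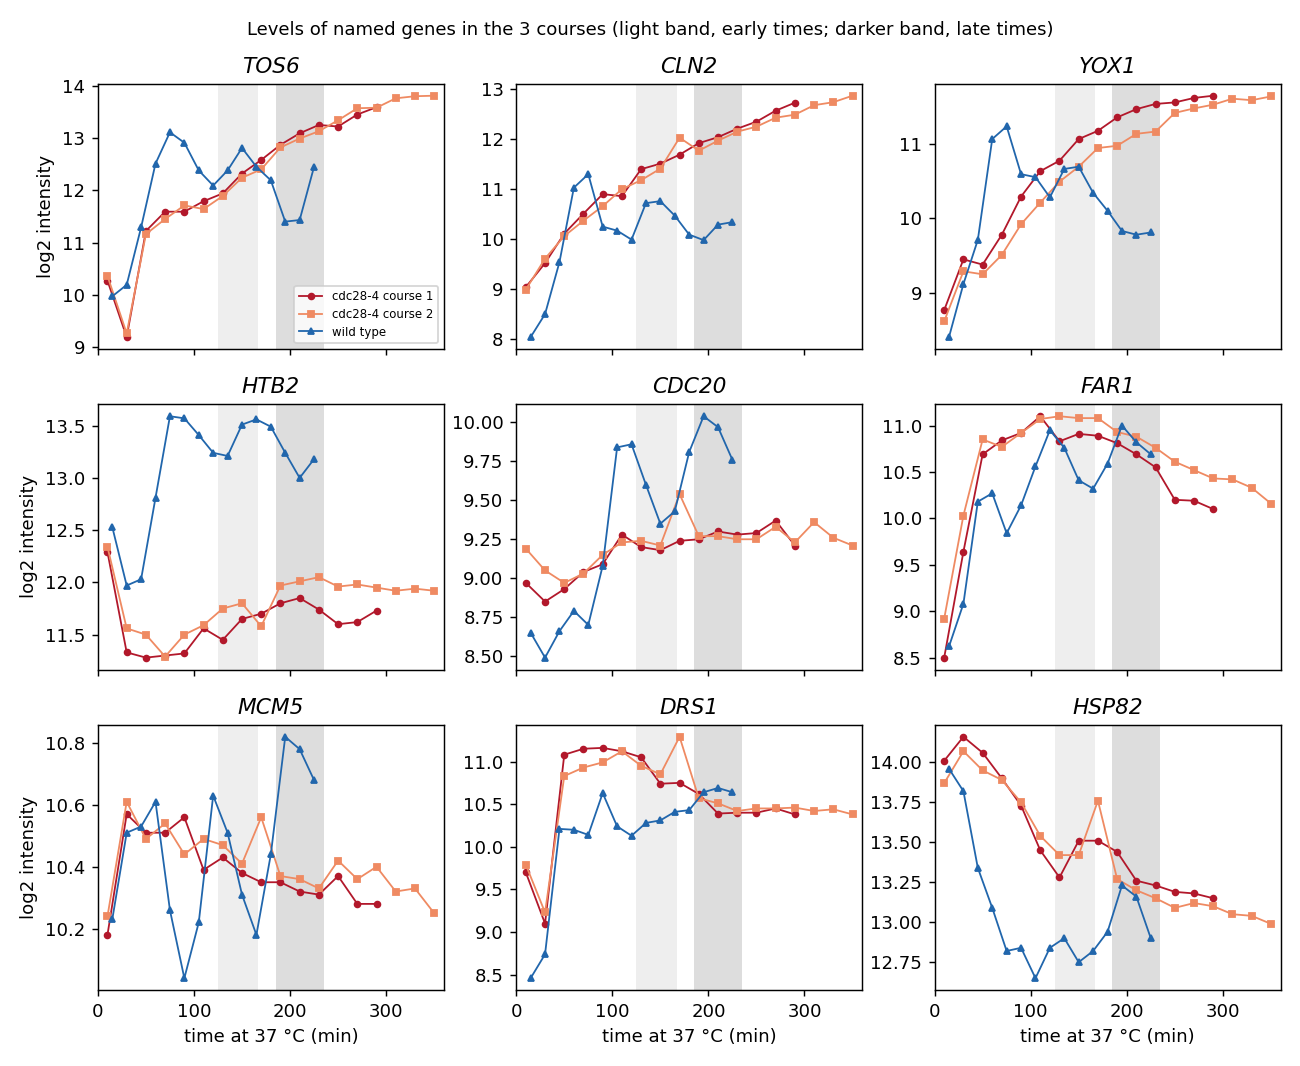
Log2 intensity of 9 genes against time at 37 °C (min) in cdc28-4 course 1 (dark red circles), cdc28-4 course 2 (orange squares) and wild type (blue triangles); the light band holds the early and the darker band the late times. TOS6, CLN2 and YOX1 climbed through both bands in cdc28-4 and were lower late than early on the wild-type window means, while CDC20, FAR1 and MCM5 had their highest wild-type value of these times at 195 min; course 2 stands off its neighbours at 170 min in several panels.

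Among 21 transcription factors and regulators of the cell cycle network, 10 differed on the negative side and 2 on the positive side (median -0.14). YOX1 (YML027W), a repressor that works at Mcm1 sites, rose by 0.53 and 0.50 in the cdc28-4 courses and fell by 0.71 in wild type, a difference of -1.22 (SE 0.047). Its partner repressor YHP1 differed by -0.80 (SE 0.052). NRM1 (YNR009W), which shuts MBF genes off after G1, was near background in cdc28-4, between 8.14 and 8.55, and stood at 10.16, 10.04 and 10.03 late against 10.58 and 10.72 early in wild type. It differed by -0.73 (SE 0.053), with the wild-type change at -0.57, or by -0.63 with levels under background set to background.

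The activator genes of the network moved less. SWI4, the DNA-binding part of SBF, rose in cdc28-4 by 0.23 and 0.44, had a wild-type change of 0.20 and did not pass (difference -0.14, SE 0.087, adjusted p = 0.227). SWI6, the shared subunit of SBF and MBF, was 1 of the 2 positive calls, at 0.32 (SE 0.047), with -0.07 and -0.09 in the cdc28-4 courses against 0.24 in wild type. MBP1 was the other, at 0.23 (SE 0.047), and lost its call in the 48-array fit and without the course 1 array at 150 min. HCM1, a forkhead factor of S phase, differed by -0.41 (SE 0.070), a call that was lost in the 48-array fit, in the 15-array fit whose spread is that within windows, and without the course 1 array at 130 min. Of the forkhead and Mcm1 group, NDD1 differed by -0.33 (SE 0.046) and FKH1 by -0.19 (SE 0.049), calls that the 48-array fit did not keep, while FKH2 and MCM1 did not pass. SWI5, the activator of late mitotic targets, rose in both strains, by 0.26 and 0.24 in cdc28-4 and by 0.27 in wild type, with a difference of 0.02 (SE 0.046, adjusted p = 0.805).

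Of 12 genes for Cdk1 and its regulators, 4 differed on the negative and 2 on the positive side, near the 46.4% of all genes. FAR1 (YJL157C), the inhibitor of G1 Cdk1 that pheromone acts through, stood at 10.81, 10.69 and 10.55 late against 10.83 and 10.91 early in cdc28-4 course 1, at 10.93, 10.88 and 10.76 against 11.10 and 11.08 in course 2, and at 11.00, 10.82 and 10.69 against 10.41 and 10.32 in wild type. All wild-type late values lay above the early ones, all mutant late values lay below theirs, and the difference was 0.68 (SE 0.049, adjusted p = 0.00101). CDC20 (YGL116W), the activator of the anaphase-promoting complex, stood between 9.18 and 9.30 on all 10 arrays of cdc28-4 and rose in wild type to 10.04, 9.97 and 9.76 late against 9.35 and 9.43 early, for a difference of 0.47 (SE 0.049).

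ACM1, an inhibitor of the other activator Cdh1, moved the opposite way, with a difference of -0.85 (SE 0.048) from changes of 0.63 and 0.67 in cdc28-4 against -0.20 in wild type. SWE1, the kinase that inhibits mitotic Cdk1, differed by -0.45 (SE 0.057). CKS1, the small Cdk1-binding subunit, differed by -0.33 (SE 0.046) with no called change in cdc28-4. CDC28 transcripts rose by 0.28 and 0.17 in the mutant courses and had a wild-type change of -0.10, a difference of -0.33 (SE 0.061) that the 48-array fit did not call. The differences for SIC1, MIH1, CAK1, CDC14, CDH1 and CDC5 did not pass.

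Histone genes, made in S phase, differed on the negative side in 9 of 10 (median -0.36); 8 rose in cdc28-4 and 7 fell in wild type. The count was 6 in the 48-array fit and also 6 after centring on the probe sets for fission yeast. HTB2 (YBL002W), a histone H2B gene, stood at 11.80, 11.85 and 11.74 late against 11.45 and 11.65 early in cdc28-4 course 1, at 11.97, 12.01 and 12.05 against 11.75 and 11.80 in course 2, and at 13.24, 13.00 and 13.18 against 13.51 and 13.56 in wild type. Early and late arrays did not overlap in any course, and the difference was -0.64 (SE 0.046). HHO1, the linker histone gene, differed by -0.74 (SE 0.053). The H2A variant HTZ1 did not pass.

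MBF targets and DNA replication genes were split: of 38, 12 differed on the negative and 3 on the positive side, and the median of -0.02 was near that of all genes. It was 0.01 after centring on the probe sets for fission yeast. The members with the largest differences were CLB6, then the cohesin gene MCD1 (YDL003W) at -0.61 (SE 0.047), POL30, the sliding clamp of replication, at -0.60 (SE 0.067), and RNR1, the large subunit of ribonucleotide reductase, at -0.59 (SE 0.049). MCD1 stood at 9.32, 9.42 and 9.56 late against 8.95 and 9.04 early in cdc28-4 course 1 and at 9.15, 9.28 and 9.36 against 8.80 and 8.78 in course 2. In wild type it stood at 10.49, 10.78 and 11.02 late against 10.94 and 10.89 early, a range that spans the early values. Without the course 1 array at 150 min the negative count on this list was 6.

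Mitotic genes did not separate the strains as a list. In the CLB2 cluster, 22 of 35 rose in cdc28-4 and 21 rose in wild type, with medians of 0.18 and 0.12 in the mutant courses and 0.19 in wild type. The difference was positive for 8 and negative for 5 (median 0.05), and leaving out 1 array moved the positive count between 3 (without the cdc28-4 course 1 array at 150 min) and 16 (without the wild-type array at 165 min). The mitotic cyclin genes CLB2, CLB3 and CLB4 did not pass.

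CLB1 (YGR108W) was the mitotic cyclin gene that differed, at -0.82 (SE 0.048, adjusted p = 0.000768). It rose in cdc28-4 to 9.64, 10.08 and 10.30 late against 8.95 and 9.11 early in course 1, and to 9.68, 9.96 and 10.25 against 8.89 and 9.00 in course 2. In wild type, where it stood at 10.90, 10.75 and 10.73 late against 10.44 and 10.79 early, it rose by 0.18 and its late and early values overlapped. CLB2, its paralog, stood between 9.90 and 10.20 in cdc28-4 and between 9.75 and 10.13 in wild type on these arrays, and it had no called change in either strain. Beside CDC20, positive calls of the cluster included AIM44, which acts at the bud neck, at 0.41 (SE 0.055), and BNS1, related to the mitotic exit protein Spo12, at 0.36 (SE 0.049).

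Most genes with Mcm1 sites that peak between mitosis and G1 rose in wild type. Of 18, 15 rose in wild type, and 7 rose and 6 fell in cdc28-4. The difference was positive for 8 and negative for 1 (CLN3), beside 25.1% and 21.4% of all genes. Its median was 0.11, but 0.0652 after median centring of the arrays and 0.0541 without the wild-type array at 165 min. The 48-array fit called 5 positive. The MCM genes, which encode the helicase loaded on replication origins, made up 5 of the 8, the other members being FAR1 and the mating genes STE2 and STE6. MCM5 (YLR274W) stood at 10.35, 10.32 and 10.31 late against 10.43 and 10.38 early in cdc28-4 course 1 and at 10.37, 10.36 and 10.33 against 10.47 and 10.41 in course 2. In wild type it stood at 10.82, 10.78 and 10.68 late against 10.31 and 10.18 early, and the difference was 0.60 (SE 0.046, adjusted p = 0.00118). MCM3 and MCM2 followed at 0.38 and 0.37.

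Spindle and Hcm1 target genes differed on the negative side in 9 of 31, near the 21.4% of all genes, and on the positive side in 1 (median -0.04). SPC25, a kinetochore subunit of the Ndc80 complex, led them at -0.67 (SE 0.046), from 0.20 and 0.21 in the cdc28-4 courses against -0.47 in wild type. Among 20 cytokinesis and septum genes 6 differed on the positive side, near the 25.1% of all genes, and 2 on the negative side. HSL1, the kinase at the bud neck that inhibits Swe1, differed by -0.79 (SE 0.071), and the septin gene SHS1 by 0.31 (SE 0.051).

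Cell wall integrity genes, which Slt2, a mitogen-activated kinase, induces under wall stress, differed on the negative side in 11 of 16 and on the positive side in 1 (median -0.30). In cdc28-4, 12 rose. The negative count of this list was 6 in the 48-array fit and 7 without the course 1 array at 150 min. YPS3 (YLR121C), a protease of the cell surface, stood at 12.36, 12.59 and 12.90 late against 11.32 and 11.65 early in cdc28-4 course 1 and at 12.20, 12.45 and 12.66 against 11.02 and 11.50 in course 2. In wild type it stood at 8.42, 8.28 and 8.57 late against 9.15 and 8.84 early, with the late values not above background. Its measured difference was -1.73 (SE 0.049, adjusted p = 0.000116), and -1.47 with levels under background set to background. CRH1, a transglycosylase that joins chitin to glucan, differed by -0.85 (SE 0.054) and moved both ways, with 0.48 and 0.41 in cdc28-4 against -0.40 in wild type. PIR3 and PST1, wall proteins of the same response, differed by -0.86 and -0.69; PST1 rose in wild type too.

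Ribosome biogenesis genes, whose products process ribosomal RNA and assemble ribosomes in growing cells, moved in the reverse sense to the SBF targets. All 50 measured genes fell in cdc28-4, 19 rose in wild type and 1 fell there. The difference was positive for 48 (median 0.45) and was not called for NOP1 and NOG2. Over the 15 fits that left out 1 array the positive count ran from 44 to 49, and in the 48-array fit it was 39. In 49 of the 50 genes the late arrays lay below the early arrays in both cdc28-4 courses. In 26 they also lay above them in wild type. Of all genes tested, 45.8% stood apart in both cdc28-4 courses and 13.3% in all 3, in the direction of the difference.

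DRS1 (YLL008W), a helicase for the large ribosomal subunit, had the largest positive difference of any gene, 0.71 (SE 0.047, adjusted p = 0.000963). It stood at 10.62, 10.39 and 10.40 late against 11.05 and 10.74 early in cdc28-4 course 1, at 10.57, 10.51 and 10.42 against 10.95 and 10.85 in course 2, and at 10.64, 10.69 and 10.64 against 10.31 and 10.41 in wild type. PUF6 (YDR496C), an RNA-binding protein of the nucleolus, stood at 11.11, 11.03 and 11.04 late against 11.51 and 11.26 early in course 1, at 11.10, 11.01 and 11.00 against 11.37 and 11.23 in course 2, and at 11.80, 11.72 and 11.92 against 11.37 and 11.47 in wild type, for a difference of 0.69 (SE 0.050). In both genes no late value overlapped an early one in any course.

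Of the genes with the 15 largest positive differences, DRS1, PUF6, NOP7, UTP4, RRP5 and DBP2 are members of this list. Beside DRS1 and PUF6, NOP7 was at 0.65, UTP4 and RRP5 at 0.64 and the helicase gene DBP2 at 0.62. Outside the list, the GTPase gene BMS1 was at 0.66, the nucleolar genes NOC2 and MAK21 at 0.65 and 0.63, NOP9 at 0.63 and the RNA acetyltransferase gene KRE33 at 0.63. GLN4, which encodes glutaminyl-tRNA synthetase, differed by 0.62, and RMT2, which methylates a ribosomal protein, by 0.63. YMR230W-A, for which no role is given here, differed by 0.70 (SE 0.11). DBP2, RMT2 and YMR230W-A fell in cdc28-4 with no called change in wild type.

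**Figure D3:**
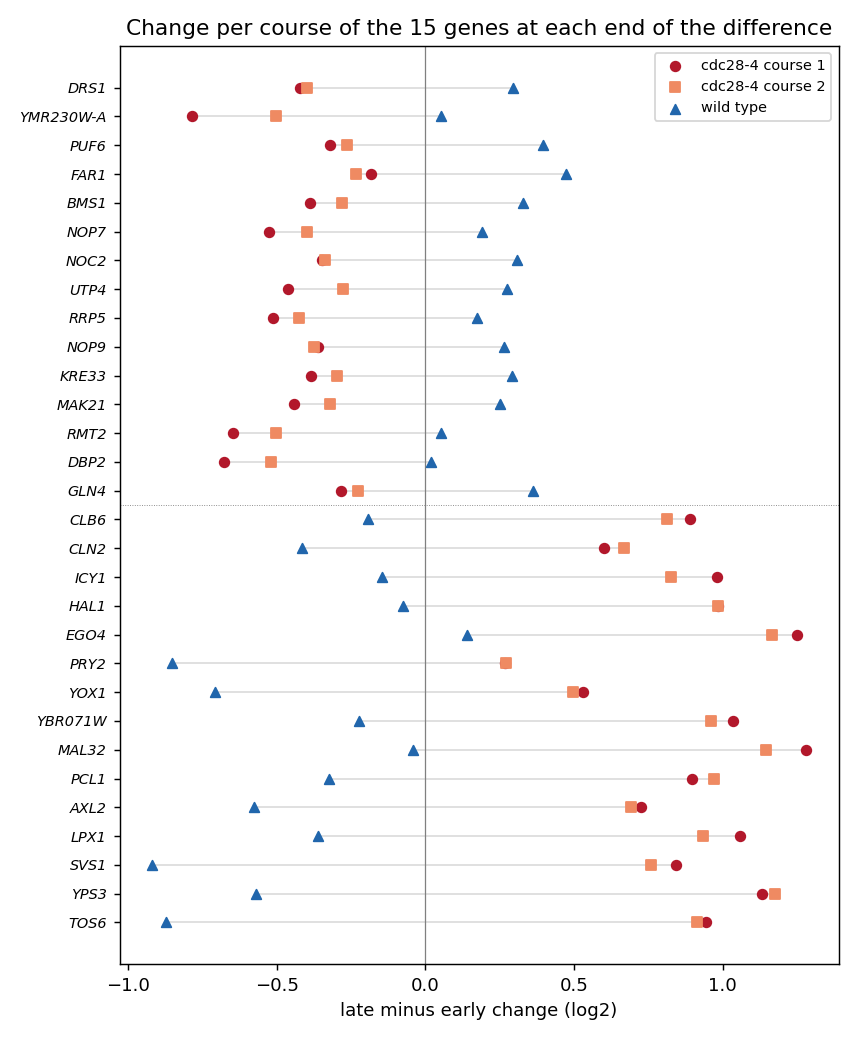
Late minus early change (log2) in cdc28-4 course 1, cdc28-4 course 2 and wild type for the genes with the 15 largest positive differences (upper part) and the 15 largest negative ones (lower part). Both mutant courses lie on the other side of 0 from wild type for every gene shown except EGO4, which had 0.14 in wild type.

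Subunits of RNA polymerases I and III, which make ribosomal and transfer RNA, fell with the assembly genes in cdc28-4, in 22 of 27. In wild type 3 rose, RRN3 among them, and 3 fell. Of the 27, 19 differed on the positive and 2 on the negative side (median 0.29). The positive count was 10 in the 48-array fit and 12 without the course 1 array at 150 min. RRN3 (YKL125W), the initiation factor of polymerase I, fell by 0.30 and 0.25 in the cdc28-4 courses and rose by 0.26 in wild type, a difference of 0.54 (SE 0.049). RPA34 and RPA190, polymerase I subunits, differed by 0.48 and 0.44, with no called change in wild type. Of 22 ribosomal protein genes 3 differed, all on the positive side (median 0.06), and the largest of these was RPS1A at 0.27 (SE 0.055), which was not called in the 48-array fit or without the course 1 array at 150 min.

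Heat shock chaperone genes, which Hsf1 keeps active at raised temperature, differed on the positive side in 21 of 29 and on the negative side in 1, HSP31 (median 0.25). In cdc28-4 15 fell and 2 rose, and in wild type 13 rose and none fell. HSP82 (YPL240C), an Hsp90 gene, stood at 13.44, 13.26 and 13.23 late against 13.28 and 13.51 early in cdc28-4 course 1, at 13.27, 13.20 and 13.15 against 13.42 and 13.42 in course 2, and at 13.23, 13.16 and 12.90 against 12.75 and 12.82 in wild type. Early and late values overlapped in cdc28-4 course 1 and in neither of the other courses, and the difference was 0.46 (SE 0.066). BTN2, a sorting chaperone for misfolded proteins, differed by 0.52 (SE 0.046), the disaggregase gene HSP104 by 0.48 (SE 0.057) and the inducible Hsp70 gene SSA4 by 0.47 (SE 0.053).

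This count leaned on 1 library: without the course 1 array at 150 min 7 chaperone genes differed on the positive side. Without that array 1129 of all genes differed, and the median difference of the list was 0.236, against 0.251 with it. In the 48-array fit 14 chaperone genes differed on the positive side. The median of the list in course 1 was 12.98 at 130 min and 13.07 at 150 min, lower than its 13.33 at 190 min, whereas course 2 had 13.35 and 13.24 early and 13.27 at 190 min. Thus the mutant courses took different paths through the early window for these genes. HSP82 and SSA4 were not called without that array.

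General stress genes, which Msn2 and Msn4 induce, and genes of the reserve carbohydrates trehalose and glycogen rose mainly in cdc28-4. Of 26 stress genes 22 rose and 1 fell in cdc28-4, and 3 rose in wild type; 13 differed on the negative and 1 on the positive side (median -0.32). Of 20 trehalose and glycogen genes 18 rose in cdc28-4 and 5 in wild type, and 11 differed on the negative and 1 on the positive side (median -0.23). GLC3 (YEL011W), the branching enzyme of glycogen, stood at 12.24, 12.40 and 12.50 late against 11.14 and 11.72 early in cdc28-4 course 1, at 12.01, 12.20 and 12.28 against 11.24 and 11.47 in course 2, and at 10.49, 10.55 and 10.55 against 10.50 and 10.38 in wild type. The mutant arrays had no overlap between late and early, the wild-type change was not called, and the difference was -0.79 (SE 0.068).

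GSY2, the main glycogen synthase, differed by -0.72 (SE 0.099), and GPH1, glycogen phosphorylase, by -0.50 (SE 0.10). In course 1 much of the rise lay between the early arrays: GPH1 stood at 10.63 at 130 min and 11.90 at 150 min, and at 11.41 and 11.63 in course 2. The call for GPH1 was lost in the 48-array fit, in a fit whose spread is that within windows, and when any one of 3 arrays was left out. The negative counts of these lists were 5 (stress) and 4 (trehalose and glycogen), both in the 48-array fit and without the course 1 array at 150 min.

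**Figure D4:**
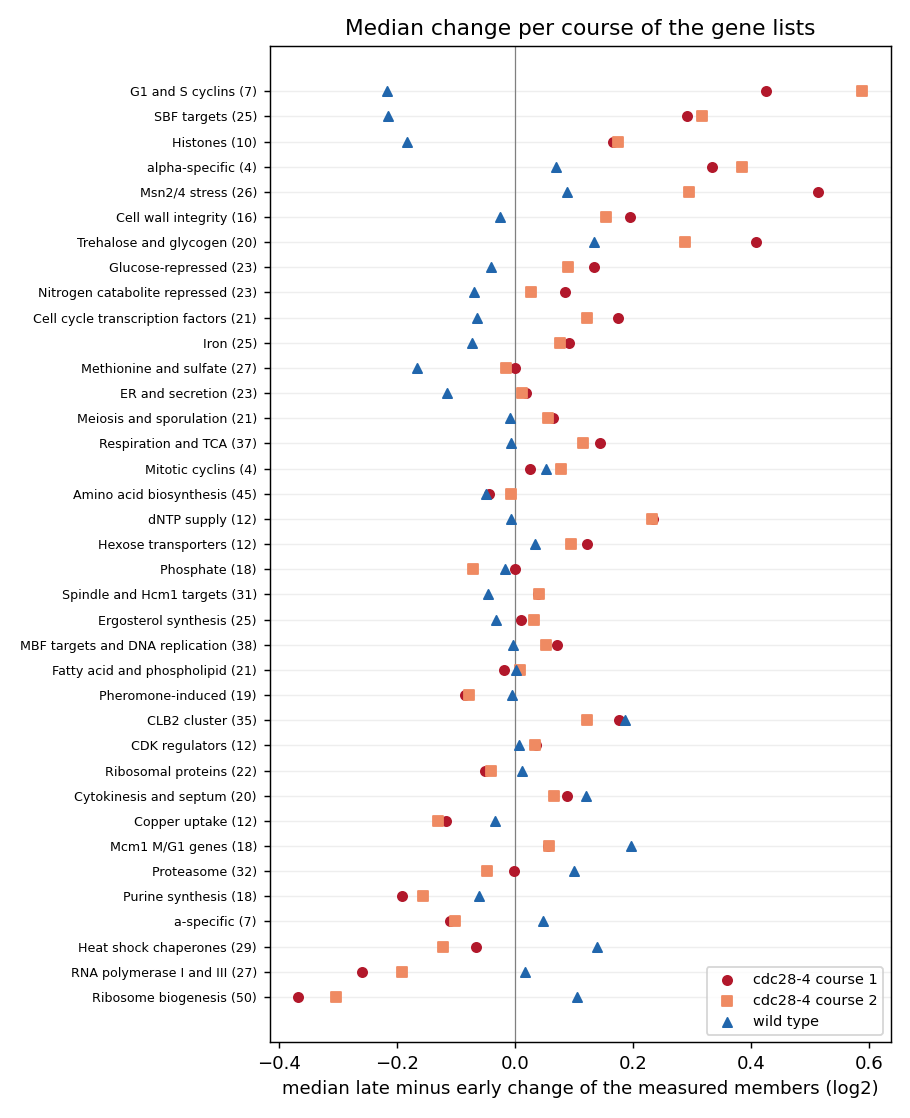
Median late minus early change (log2) of the measured members of each gene list shown (number in brackets) in cdc28-4 course 1, cdc28-4 course 2 and wild type, ordered by the median difference. Cyclins, SBF targets and histones stand at the top with the mutant courses right of 0 and wild type left of it, and ribosome biogenesis stands at the bottom with the order turned.

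Of 7 a-specific genes 5 differed on the positive and 2 on the negative side. The 5 include BAR1, which the wild type lacks by its label and which was under background there, so its difference is that of cdc28-4 alone. None of the 5 was called in the 48-array fit. STE2, the alpha-factor receptor, differed by 0.24 (SE 0.046), with -0.11 and -0.10 in the cdc28-4 courses against 0.14 in wild type. All 4 alpha-specific genes rose in cdc28-4 and none was called in wild type. MF(ALPHA)1 and MF(ALPHA)2 were under background there, and STE3 was near it. SAG1, alpha-agglutinin, differed by -0.54 (SE 0.052) and MF(ALPHA)1 by -0.44 (SE 0.11), or by -0.53 with levels under background set to background; the 48-array fit called MF(ALPHA)1 and not SAG1, and MF(ALPHA)1 was not called in the 15-array fit (adjusted p = 0.0697) or when any one of 3 cdc28-4 arrays was left out. Among 19 pheromone-induced genes 7 differed on the positive and 6 on the negative side, and the receptor-coupled G protein gene GPA1 (YHR005C) was at 0.62 (SE 0.055), with -0.09 and -0.17 in cdc28-4 against 0.48 in wild type.

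Meiosis genes differed on the negative side in 6 of 21, near the 21.4% of all genes, and on the positive side in 1. RIM4, an RNA-binding regulator of meiosis, rose by 1.10 and 1.20 in the cdc28-4 courses and by 0.37 in wild type, and differed by -0.78 (SE 0.058), or by -0.95 with levels under background set to background. The meiotic inducer gene IME1 changed by 0.01 and 0.04 in the cdc28-4 courses and fell by 0.19 in wild type.

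Carbon and nitrogen genes leaned to cdc28-4, beside 21.4% of all genes on the negative and 25.1% on the positive side. Of 23 glucose-repressed genes 11 differed on the negative side and none on the positive side (median -0.19). MAL32 (YBR299W), maltase, stood at 10.28, 10.72 and 10.92 late against 9.09 and 9.63 early in cdc28-4 course 1, at 10.05, 10.37 and 10.59 against 9.09 and 9.30 in course 2, and between 8.54 and 8.67, under background, in wild type. It differed by -1.25 (SE 0.066), or -1.21 with levels under background set to background. Of 23 nitrogen-repressed genes 12 differed on the negative and 1 on the positive side, with the proline permease gene PUT4 (YOR348C) at -0.95 (SE 0.052) from changes of 1.18 and 1.12 against 0.20. Respiration and TCA cycle genes differed on the negative side in 14 of 37 and on the positive side in 1 (median -0.09), and IDH1, a subunit of isocitrate dehydrogenase, was at -0.61 (SE 0.048), with a wild-type fall of 0.44. The 48-array fit called 4 glucose-repressed and 5 respiration genes on the negative side, and 4 of either list were called without the course 1 array at 150 min. Over all 5449 genes these settings called 411 and 523 on the negative side.

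Methionine, secretion and proteasome genes changed in wild type, some of them in cdc28-4 too. Their counts stand beside shares of all genes of 21.4% on the negative and 25.1% on the positive side. Among 27 methionine and sulfate genes 16 fell in wild type and 6 rose and 7 fell in cdc28-4; 12 differed on the negative and 4 on the positive side (median -0.13). CYS3, which makes cysteine, stood at 12.86, 12.39 and 12.92 late against 13.26 and 13.13 early in wild type, while its cdc28-4 values all lay between 13.73 and 13.88, for a difference of -0.47 (SE 0.051). Among 23 genes of the endoplasmic reticulum and secretion 10 fell in wild type and 10 differed on the negative and 3 on the positive side, led by the protein disulfide isomerase gene PDI1 at -0.45 (SE 0.050), with 0.28 and 0.22 in the cdc28-4 courses against -0.20 in wild type. Proteasome subunit genes differed on the positive side in 13 of 32 and in none on the negative side (median 0.13); 12 rose in wild type and 8 fell in cdc28-4, and RPN1 and RPT4, which encode subunits of the proteasome base, were at 0.45 and 0.40. Without the course 1 array at 150 min 6 proteasome genes differed on the positive side, as did 606 of all genes. After median centring of the arrays the proteasome median was 0.0821.

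The remaining metabolic lists were mixed beside the shares of all genes. Purine genes stood above the 25.1% on the positive side. Iron genes and nucleotide supply genes (5 of 12, with 1 on the positive side) stood above the 21.4% on the negative side. The others stood near or below the shares. Of 45 amino acid genes 10 differed on the negative and 6 on the positive side, beside 21.4% and 25.1% of all genes, with argininosuccinate synthetase ARG1 (YOL058W) at -0.74 (SE 0.046) from 0.41 and 0.39 in cdc28-4 against -0.34 in wild type. Of 18 purine genes 9 differed on the positive and 3 on the negative side; AAH1, adenine deaminase, fell in both strains, by 0.91 and 0.83 in cdc28-4 and by 0.32 in wild type, a difference of 0.55 (SE 0.055). The positive purine count was 2 in the 48-array fit and without the course 1 array at 150 min. Of 25 iron genes 9 differed on the negative and 2 on the positive side, and of 12 copper genes 1 and 3. The copper transporter gene CTR1 fell by 0.44 and 0.74 in cdc28-4 and differed by 0.48 (SE 0.12), a call lost when the course 1 array at 130 min was left out. The hexose transporter, phosphate, ergosterol, phospholipid and nucleotide supply lists had 4 of 12, 7 of 18, 8 of 25, 6 of 21 and 6 of 12 genes called in either direction, beside 46.4% of all genes. The phosphate count takes in CTF19, a kinetochore gene. It differed by 0.17 (SE 0.054), or by 0.0165 with levels under background set to background.

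Among the genes with the largest negative differences that belong to none of these groups, LPX1 (YOR084W), a lipase of peroxisomes, rose by 1.06 and 0.93 in cdc28-4 and fell by 0.36 in wild type. HAL1, a gene of salt tolerance, rose in cdc28-4 to 10.24, 10.50 and 10.63 late against 9.43 and 9.51 early in course 1, and to 10.21, 10.44 and 10.61 against 9.34 and 9.54 in course 2. In wild type HAL1 stayed between 9.55 and 9.70 and its difference was -1.06 (SE 0.046). YBR071W, EGO4 and ICY1, for which no role is given here, differed by -1.22, -1.07 and -1.05.

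The windows held different paths in the strains. In cdc28-4 the median of the SBF targets climbed over the arrays of the windows, with 11.39, 11.58, 12.04, 12.17 and 12.27 at 130, 150, 190, 210 and 230 min in course 1 and 11.23, 11.51, 11.92, 12.08 and 12.18 in course 2. In wild type it turned inside the windows, with 11.45 at 150 min, 11.30 at 165 min, 10.99 at 180 min, 10.80 at 195 min, 10.99 at 210 min and 11.11 at 225 min. The CLB2 cluster median peaked in wild type at 10.90 at 195 min, after 10.44 at 150 min, and stood at 10.73 at 225 min. The wild-type late window thus joined arrays on both sides of a turn, and over genes the median SD among its 3 arrays was 0.0739, against 0.0493 and 0.0341 in the late windows of the cdc28-4 courses. For HCM1 and PCL1 the wild-type level at 225 min was back within or above the early values.

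**Figure D5:**
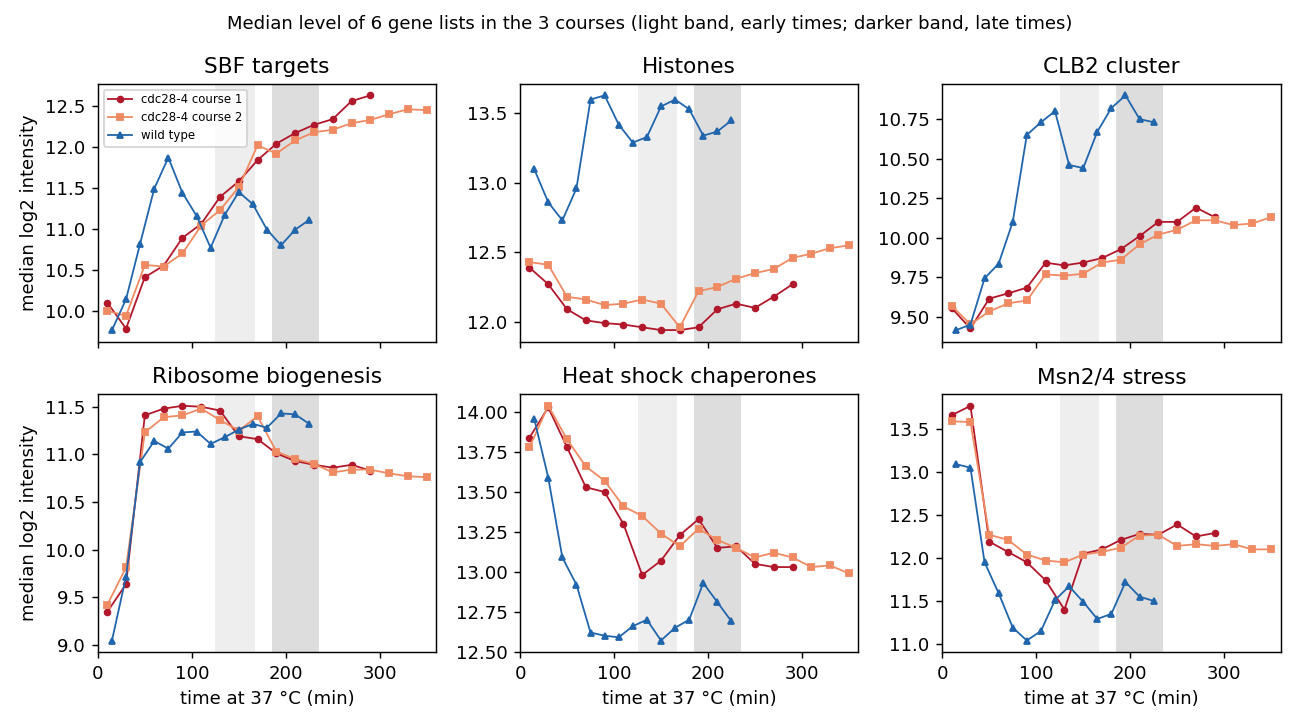
Median log2 intensity of the measured members of 6 gene lists against time at 37 °C (min) in cdc28-4 course 1 (dark red circles), cdc28-4 course 2 (orange squares) and wild type (blue triangles), with the early and late times banded. SBF targets were higher late than early in both cdc28-4 courses, with course 2 at 12.02 at 170 min and 11.92 at 190 min, and had a wild-type minimum at 195 min within these times; at 130 min cdc28-4 course 1 stood lower than course 2 for chaperones (12.98 and 13.35) and stress genes (11.40 and 11.95).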

How the data were processed

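The authors deposited 1 linear intensity for each probe set on each array, made with the R package affy, per the submitters' processing notes. For its version and its summary and normalization steps nothing is stated in what was read. Log2 was taken with no added constant. Of 10928 probe sets, 5498 had 1 S. cerevisiae gene; for the 47 genes with several the brightest was kept, leaving 5449 genes. The analysis used R 4.3.3 and limma 3.58.1 on 3 course values (late minus early window mean), with Benjamini-Hochberg adjustment over all genes, two-sided. The replicate number is the course, per the labels, so each change is taken within its course and this is the pairing. The prior degrees of freedom (4.902) were estimated from the 15 arrays, since 3 course values leave 1 residual degree of freedom; this departs from the plain eBayes fit first planned, which made more false calls on simulated data and is given as an alternative. On these data the choice moved little: the plain fit called 2540 genes, among them all 2531 reported here.

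Named genes are the 15 largest called differences in each direction that lie above background in at least 1 window mean, every cyclin, Cdk1 regulator and cell cycle factor of the lists, and up to 5 called genes of every other list with the largest differences; members without a named value are given by counts. Genes named outside this rule (list members that did not pass, GIC1, GIC2, FKS1, RSR1, GAS1, HTZ1, NOP1, NOG2, HSP31 and MFA1) were chosen after their values were seen. The comparison, the 38 lists and the tests were chosen with earlier results of these data known. Of 798 listed symbols 783 were measured; the others are not analysed here, and 1 list is not reported here. Probe sets of several or no genes and controls were left out, and no promoter sequence was used here.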

Additional observations from a re-analysis of the deposited data

Results flagged for a closer look

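Changes between the early and late windows, whose times are not the same in both strains, differed between the strains by limma's test of the difference itself for 2531 genes. Since every one of these meets the same test, values are given for the largest differences (wild type minus cdc28-4, log2). On the positive side they were DRS1 at 0.705, YMR230W-A at 0.696, PUF6 at 0.688, FAR1 at 0.682, BMS1 at 0.662, NOP7 at 0.655, NOC2 at 0.651 and UTP4 at 0.644. RRP5 was at 0.641, NOP9 at 0.633, KRE33 at 0.632, MAK21 at 0.63, RMT2 at 0.627, and DBP2 and GLN4 at 0.618. On the negative side they were TOS6 at -1.8, YPS3 at -1.73, SVS1 at -1.72, LPX1 at -1.36, AXL2 at -1.29, PCL1 at -1.26, MAL32 at -1.25, and YOX1 and YBR071W at -1.22. PRY2 was at -1.12, EGO4 at -1.07, HAL1 at -1.06, ICY1 and CLN2 at -1.05 and CLB6 at -1.04.

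Outside the yeast genes, 184 of 1746 fission yeast probe sets passed the same test in a joint fit, although these probe sets have no target in the cells. Their differences had an SD of 0.144, against 0.246 for yeast genes.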

How the results depend on the processing

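Of 206 named genes none that was called changed direction under any setting tried, and 19 lost their call in the fit of 15 arrays whose spread is that within windows, which was chosen after seeing the data. The 48-array fit without a replicate block called 958 genes (547 positive, 411 negative), 1518 within cdc28-4 and 308 within wild type; with the replicate block, a term for each cdc28-4 course, it called 1546 (831 positive, 715 negative) and 745 within wild type. In the fit without the block 61 named genes lost their call, and in that with it 28. With the cdc28-4 early window at 150 and 170 min 0 genes differed (0 positive, 0 negative; 966 at an unadjusted p under 0.05 in limma), 28 were called within cdc28-4 and 0 within wild type. With cdc28-4 values interpolated to the wild-type times 92 differed (19 positive, 73 negative), 473 within cdc28-4 and 0 within wild type. Both settings take in the 170 min array of course 2; without it, a choice made after seeing the data, 2140 and 2255 genes differed. Matched times of 150 and 210 min alone gave 1845 genes within cdc28-4. Sizes moved with the times used. GPH1, at -0.505 in the main windows, was at -0.43 at the matched times and at -0.0757 interpolated. AAH1 went from 0.549 to 0.401 and 0.206, and EGO4 from -1.069 to -0.747 and -0.738. YPS3 was at -1.81 matched and -1.29 interpolated, and DRS1 at 0.722 and 0.695. These interpolated values take in the 170 min array of course 2. Leaving out 1 array at a time gave from 1129 to 2799 genes that differed, 606 to 1485 positive, 523 to 1314 negative, 2053 to 3065 within cdc28-4 and 23 to 2052 within wild type; the lowest of these came without the course 1 array at 150 min, and 659 were called within wild type without that at 190 min. Leaving out a whole cdc28-4 course left no residual degree of freedom, so those values have no test. Quantile normalization, a variance trend, the filter on dim genes and the prior from the 3 course values gave 2525, 2668, 2523 and 2540 genes. The planned comparison of promoter motifs was not run, since it needs promoter sequences that are not used here. Signal near background limits wild-type values of genes such as YPS3, MAL32 and BAR1, and 1 wild-type course gives no spread of its own.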
